A study of Mus musculus with 54 samples.

Results

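The clustered protocadherins are adhesion proteins encoded side by side on mouse chromosome 18. The genes whose symbols start with Pcdha, Pcdhb or Pcdhg were taken from the annotation of build GRCm38.p6, the assembly that mm10 names, which gave 58 genes among 49997 named genes. They comprise 14 Pcdha genes, 22 Pcdhb genes and 22 Pcdhg genes, and 1 of the Pcdhg genes, Pcdhgb8, is a transcribed pseudogene. Replication timing was read at the 50 kb windows that these genes overlap, which are 16 of 43941 autosomal windows: 6 Pcdha, 6 Pcdhb and 4 Pcdhg windows.

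Each Pcdha and Pcdhg protein has an extracellular part and a membrane span from its own variable exon, joined to a cytoplasmic end encoded by constant exons that all genes of the subcluster share. The Pcdhb genes have no shared constant exons and are mostly single-exon genes. Neurons choose promoters of the variable exons stochastically and separately on each chromosome, so that each cell carries its own combination, and the proteins bind like combinations on other membranes, which lets a neuron tell its own branches from those of its neighbours. The C-type genes at the ends of the Pcdha and Pcdhg subclusters (Pcdhac1, Pcdhac2, Pcdhgc3, Pcdhgc4 and Pcdhgc5) are expressed more uniformly across neurons. In many cell types, early replication goes with open, transcribed chromatin and late replication with silent chromatin.

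Repli-Seq had been run on F1 hybrid mouse cells to compare the timing of the parental genomes in development. BrdU-labelled DNA of cells in the early and in the late part of S phase had been sequenced, and each of 27 profiles has 1 track per allele. A positive value means more early than late signal (log2 of early over late), the timing of a window is the mean of its 2 alleles, and an allelic difference is 129 minus Cas, so that it is positive where the 129 allele was earlier. The embryonic stem cells (ESCs) were 5 hybrid lines of 129 and Cas (castaneus) in 13 profiles. F121, F121-6 and F121-9 (labelled female) and F123 (male) carry the cross label 129 / cas, and Cas129 (female) carries cas / 129. F121, F123 and Cas129 were profiled in 2i only, a feeder-free medium with MEK and GSK3 inhibitors and LIF, and F121-6 and F121-9 both in 2i and on inactivated fibroblast feeders. Neural precursor cells (NPCs) had been derived from F121-9 (1 profile) and Cas129 (2 profiles) in adherent culture and were taken at day 11. Embryonic fibroblasts (MEFs, cas / 129) were profiled in duplicate from 4 embryos, of which the first pair (1 and 2) is labelled female and the other (3 and 4) male. V6.5 ESCs (C57B6 / 129, male, 1 profile) and an extraembryonic endoderm line, XEN (C57B6 / cas, female, 2 profiles), have other parents and are described with no test. No group is labelled with a mutation or drug beyond these media, and the ages of the embryos are not given in the sources used here.

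The unit of every comparison of cell types is the line or embryo. A line is 1 cell line, so p-values measure the spread between these lines. X tracks went against the sex labels in some samples. Embryo 1, labelled female, had 1 flat X track (SD along the X 0.255 and 0.301 for 129), as embryo 4 did, and embryo 3, labelled male, had none (1.32 and 1.34). The V6.5 profile, labelled male, varied along both X tracks (2.27), and its alleles differed by only 0.098 on average over the autosomes, against 0.445 to 0.763 in the 129 and Cas ESC profiles. Results that rest on embryos 1 and 3 are given without them too. Of the marker genes of the labelled cells, 6 of 9 ESC markers, Zfp42, Dppa2 and Nanog among them, were called later in NPCs than in ESCs, and 6 of 8 fibroblast markers, with Col3a1 and Prrx1, were called earlier in MEFs. Of the markers of cells that should be absent, 2 of 8 fibroblast markers were called earlier in NPCs than in ESCs, and of 6 extraembryonic endoderm markers 1 was called earlier and 1 later in NPCs and 2 earlier and 1 later in MEFs. Of all windows, 16.4% were called earlier and 16.1% later in NPCs, and 30.3% earlier and 13.7% later in MEFs, so these last counts lie near the share at large. Only their timing was measured, not their expression. The autosomal means lie between -0.67 and -0.54 in ESC and NPC columns and between -0.22 and -0.10 in MEF and XEN columns, so timing between MEFs and the other cells crosses 2 scales, and ranks within a profile and contrasts within the locus are given beside it.

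In every cell type timing dipped across the cluster between 2 earlier flanks. The dip was not late in absolute terms everywhere: in ESC lines and XEN the mean of the cluster was earlier than most of the genome, and in ESCs Pcdhg was nearly as early as the distal flank. On mm10, Pcdha runs from 36930285 (Pcdha1) to 37188897, the furthest end of any Pcdha gene. Pcdhb runs from 37264998 (Pcdhb1) to 37521419 (Pcdhb22) and Pcdhg from 37661775 (Pcdhga1) to 37841873 (Pcdhgc5). The windows within 500 kb hold Hars, Hars2 and Zmat2 on the Pcdha side and Diaph1, Hdac3 and Pcdh1 on the Pcdhg side. In ESCs the flanks averaged 2.62 ± 0.31 (proximal) and 2.31 ± 0.19 (distal, SD, n = 5 lines), in NPCs 2.34 ± 0.06 and 2.50 ± 0.05 (n = 2 lines) and in MEFs 2.97 ± 0.17 and 2.56 ± 0.12 (n = 4 embryos). The Pcdhb windows were the latest of the 3 subclusters in all 27 profiles. Pcdhg was earlier than Pcdha in 26 of them, the exception being 1 MEF profile of embryo 2. A Pcdha gene overlaps up to 6 windows, since all of them extend to the shared constant exons, and a Pcdhg gene up to 4, so genes were placed at the window of their transcription start, and genes that start in the same window share 1 value.

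**Figure D1:**
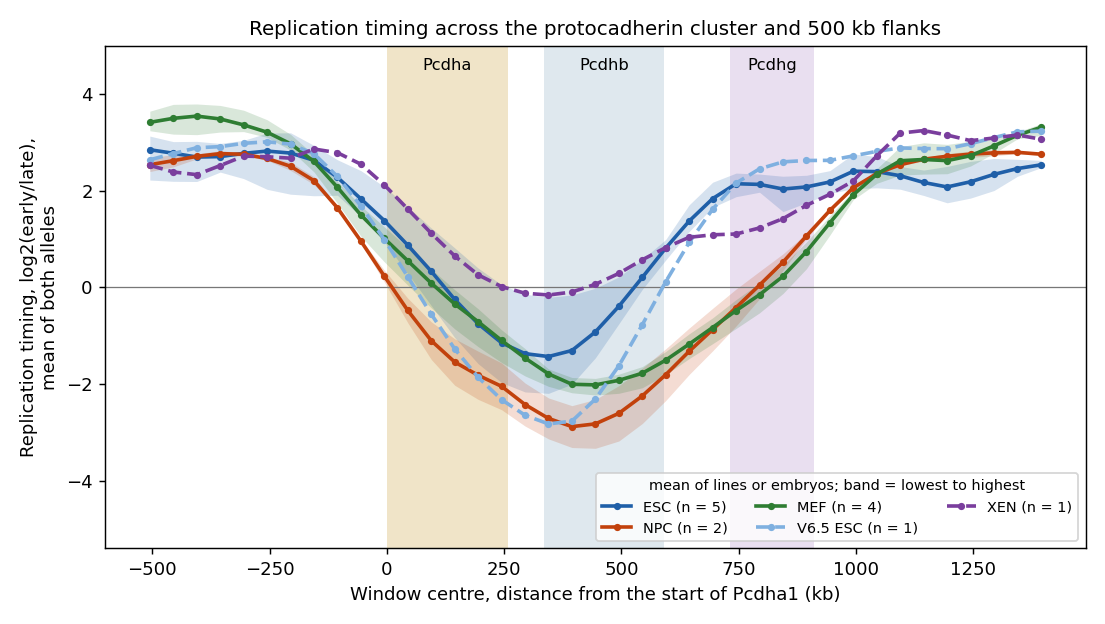
Timing of 50 kb windows (vertical axis, log2 of early over late, mean of both alleles) against distance from the start of Pcdha1 in kb, from 500 kb before the first to 500 kb after the last member window. Lines are means of lines or embryos, bands run from the lowest to the highest one, and shaded blocks mark the 3 subclusters. The valley has its floor under Pcdhb, and the MEF and NPC lines stay below the ESC line from Pcdhb to the end of Pcdhg.

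At the entry to the valley, the window in which Pcdha1, Pcdha2 and Pcdha3 start (36900001 to 36950000) had a timing above 0 in every line or embryo. Its timing in ESCs was 1.04 in F121, 1.47 in F121-6, 1.38 in F121-9, 0.946 in F123 and 2.08 in Cas129. It was 0.356 in F121-9 NPCs and 0.110 in Cas129 NPCs. The NPC values lay below all ESC values, by 1.15 ± 0.28 in the fit (SE, limma adjusted p = 0.00261). In MEF embryos 1 to 4 it was 1.175, 1.254, 1.103 and 0.529, which overlaps the ESC range. The window of Pcdhac1 (37050001 to 37100000), a C-type gene, averaged -0.25 ± 0.67 in ESCs, -1.54 ± 0.68 in NPCs and -0.34 ± 0.36 in MEFs. That of Pcdhac2 averaged -0.75 ± 0.72, -1.82 ± 0.71 and -0.71 ± 0.36. These windows varied more between ESC lines than those of Pcdhg: over the Pcdha windows Cas129 ESCs were at 1.04, F121-9 at 0.03, F121-6 at -0.001, F121 at -0.08 and F123 at -0.62. The values of F121-9 and F121-6 average profiles in 2i and on feeders, and the other lines were in 2i only. In 2i alone F121-9 was at -0.43 and F121-6 at -0.38, both below F121.

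The floor of the valley lay at the first Pcdhb genes. In all 5 ESC lines the latest window was the one in which Pcdhb1 and Pcdhb2 start (37250001 to 37300000), and V6.5 and XEN had it there too. Its timing was -1.22 in F121, -2.05 in F121-6, -1.49 in F121-9, -2.19 in F123 and -0.205 in Cas129. In NPCs and MEFs the floor was 50 or 100 kb further along. It fell in the window of Pcdhb3 to Pcdhb7 in F121-9 NPCs (-2.45) and embryos 1 (-1.99) and 3 (-1.99), and in that of Pcdhb8 in Cas129 NPCs (-3.33) and embryos 2 (-1.88) and 4 (-2.23). These positions are those of line or embryo means. In the first 2i profiles of F121-6 and F123 the floor lay between Pcdha and Pcdhb. In the first feeder profile of F121-6 it lay in the window of Pcdhb3 to Pcdhb7, so single profiles overlap between ESCs and the other cells. Neighbouring windows move together, so a shift of 1 window is small against the resolution.

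The valley was narrow in ESCs and wide in NPCs and MEFs. Windows below the autosomal median of their own line were counted, a measure chosen after the values were seen and given with no test. They covered 250 kb in F121, 300 kb in F121-6 and F121-9, 350 kb in F123 and 0 kb in Cas129 ESCs. The zone covered 600 kb in F121-9 NPCs, 750 kb in Cas129 NPCs, 700 kb in embryos 1 and 2, 650 kb in embryo 3 and 800 kb in embryo 4. In the 4 ESC lines that had such a zone it ended at 37350000 or 37400000, among the Pcdhb genes. It ended at 37600000 in F121-9 NPCs, before Pcdhg, and at 37700000 in Cas129 NPCs and between 37700000 and 37800000 in MEFs, inside Pcdhg. The zone covered 450 kb in V6.5 ESCs and 150 kb in XEN cells.

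At the far side of the valley, Pcdhg was the subcluster that separated ESCs most clearly from the differentiated cells. The window in which Pcdhga1 starts, together with 6 further Pcdhg genes (37650001 to 37700000), was at 2.30 in F121, 2.37 in F121-6, 2.09 in F121-9, 2.10 in F123 and 1.88 in Cas129 ESCs. It was at -0.033 in F121-9 NPCs, -0.798 in Cas129 NPCs and -0.507, -0.309, -0.252 and -0.850 in MEF embryos 1 to 4. Every ESC line was well above 0 and every NPC line and MEF embryo below 0. The window of the C-type genes Pcdhgc3, Pcdhgc4 and Pcdhgc5 (37800001 to 37850000) was above 0 in every line and embryo, at 2.08 ± 0.22 in ESCs, 1.07 ± 0.08 in NPCs and 0.74 ± 0.24 in MEFs. Over the Pcdhg windows V6.5 was at 2.46, above every other line or embryo, and XEN at 1.37, below the 5 ESC lines and above the NPC lines and MEF embryos.

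**Figure D2:**
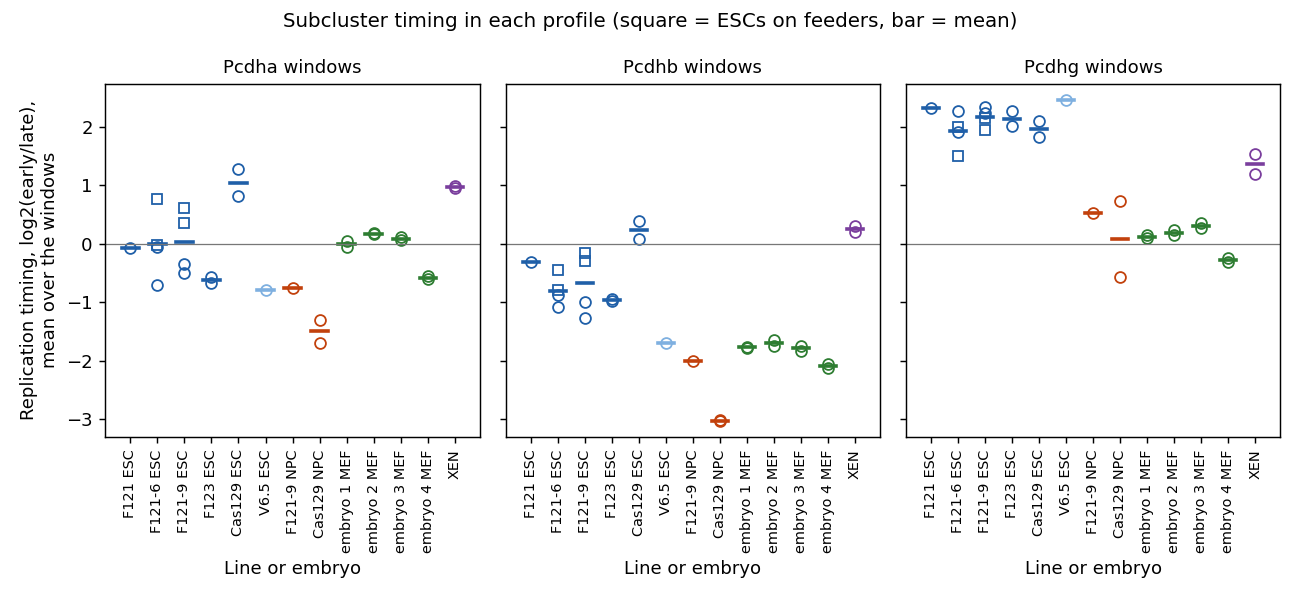
Mean timing of the Pcdha, Pcdhb and Pcdhg windows (log2 of early over late) in each profile, by line or embryo. Points are profiles, squares are ESCs on feeders and bars are the mean of a line or embryo. For Pcdhg, ESC profiles lie between 1.49 and 2.34 and MEF profiles between -0.32 and 0.35, while for Pcdha the ranges overlap.

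The derivation of NPCs from ESCs could be followed in the same lines. Timing of Pcdha fell from 0.03 to -0.75 in F121-9 and from 1.04 to -1.50 in Cas129. Timing of Pcdhb went from -0.68 to -2.01 and from 0.23 to -3.02, and that of Pcdhg from 2.17 to 0.53 and from 1.95 to 0.08. The ESC values of F121-9 average profiles in 2i and on feeders, while those of Cas129 are in 2i only. In 2i alone, F121-9 ESCs were at -0.43 over Pcdha, -1.13 over Pcdhb and 2.29 over Pcdhg. The falls of Pcdha and Pcdhb in F121-9 are thus smaller when measured from 2i. The fit over 5 ESC and 2 NPC lines did not pair the NPCs with their parent lines, and the MEF embryos share its estimate of spread. In this fit 15 of 16 windows were called later in NPCs (limma, a size of 1 or more at an adjusted p below 0.05) and 0 earlier. Of all windows, 32.5% were called, 16.1% later and 16.4% earlier. All 58 genes start in called windows, which lie side by side and are not independent. The median difference of the 16 windows was -1.48, against 0.029 over all windows. The exception was the last Pcdha window (37150001 to 37200000), where no gene starts, at -0.90 ± 0.41 (SE, limma adjusted p = 0.0777). The largest difference among member windows was at Pcdhb20, Pcdhb21 and Pcdhb22 (37500001 to 37550000). Timing there was 0.890 in F121, 0.993 in F121-6, 0.568 in F121-9, 0.647 in F123 and 0.978 in Cas129 ESCs and -1.27 and -2.34 in F121-9 and Cas129 NPCs. The groups do not overlap, and the fitted difference was -2.62 ± 0.25 (SE, limma adjusted p = 4.7e-07). In 14 of 16 windows both NPC lines were later than every ESC line, as in 25.9% of all windows (28.7% were earlier in this way). Without the Cas129 NPCs 9 windows were called, so the count rests in part on that line.

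In MEFs the change from ESCs was uneven along the locus. Of 16 windows, 8 were called later than in ESCs and 0 earlier, where 44% of all windows were called, 13.7% later and 30.3% earlier. They were all 4 Pcdhg windows, 4 of 6 Pcdhb windows and 0 of 6 Pcdha windows, and hold the starts of 37 genes, Pcdhb8 to Pcdhb22 and all of Pcdhg. The median difference was -0.17 over Pcdha, -1.32 over Pcdhb and -2.05 over Pcdhg, against 0.38 over all windows. The difference was largest at the window of Pcdhga1 (-2.63 ± 0.19, SE, limma adjusted p = 3.54e-09) and smallest in size at that of Pcdhac2 (0.043 ± 0.32, SE, limma adjusted p = 0.908). In the 8 called windows all 4 embryos were later than all 5 ESC lines, as in 22.3% of all windows (42.6% were earlier in this way). With embryos 1 and 3 left out, 8 windows were called too. Of all windows, 13311 were called earlier and 6030 later in MEFs as deposited, and 8167 and 12491 after each column was centred on its median, which called 11 member windows, all later. The count of 0 Pcdha windows is thus that of the values as deposited. As a rank within profiles, Pcdha stood at the 49.4 percentile in MEFs (44.7 to 51.8) and 58.0 in ESCs (51.6 to 68.8), with overlapping ranges. Pcdhb went from 51.9 in ESCs to 29.6 in MEFs and Pcdhg from 81.5 to 51.3. These ranks by subcluster were not tested.

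**Figure D3:**
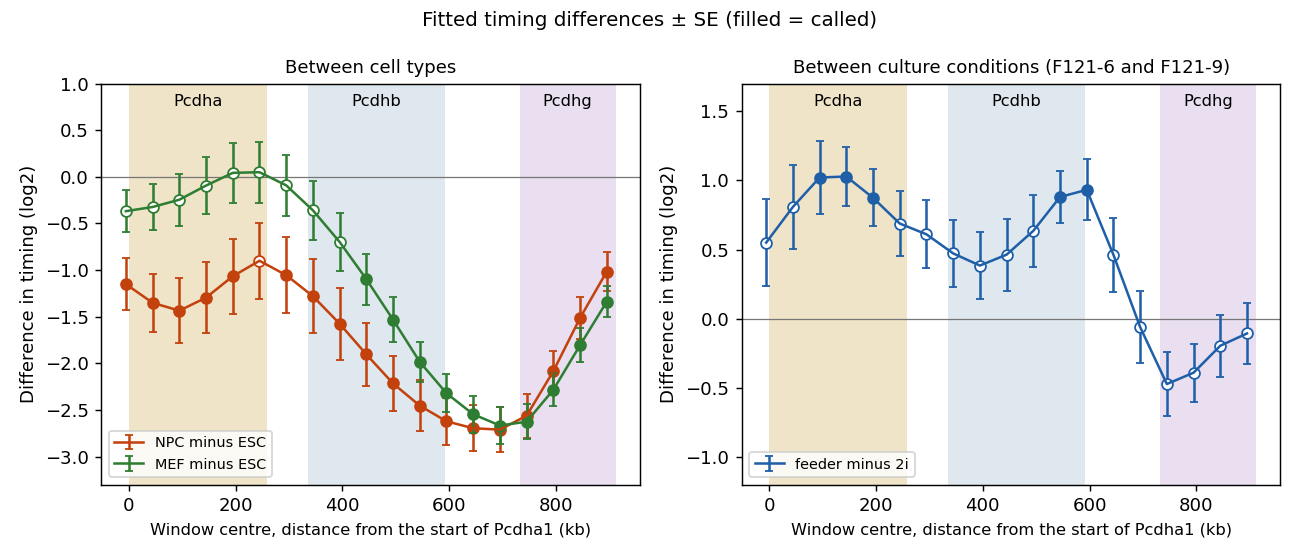
Fitted differences in timing (log2, with SE) along the locus, for NPCs and MEFs against ESCs and for feeders against 2i in F121-6 and F121-9. Filled points were called. NPCs are later along nearly the whole locus, and with values as deposited MEFs are called later only from Pcdhb8 onward. In these 2 lines ESCs on feeders are earlier at Pcdhac1 and at the last Pcdhb genes.

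The tilt of the locus was tested within profiles, where a shift of a whole column cancels. Pcdhg was earlier than Pcdha by 2.40 in F121, 1.92 in F121-6, 2.14 in F121-9, 2.76 in F123 and 0.911 in Cas129 ESCs. In MEF embryos 1 to 4 this contrast was 0.128, 0.017, 0.226 and 0.302. The groups do not overlap, and their difference was -1.86 (exact permutation test, two-sided p = 0.0159, 5 lines against 4 embryos; 0.0423 after Benjamini-Hochberg adjustment over 8 tests; the smallest possible p is 0.0079). In NPCs the contrast was 1.28 in F121-9 and 1.58 in Cas129, within the ESC range, with a difference of -0.59 (exact permutation p = 0.333, adjusted 0.381). It was 3.26 in V6.5 and 0.399 in XEN. The difference of MEFs was -1.87 without embryos 1 and 3, with an adjusted exact permutation p of 0.0762. Leaving out any 1 of the ESC lines (Cas129, F123, F121-9, F121-6 or F121) gave differences of -2.14 to -1.67 with the same adjusted p, since 4 against 4 allow no p below 0.0286.

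Against its own flanks, the cluster was later in MEFs than in ESCs. The mean of the 16 windows minus that of the flanks was -2.08 in F121, -2.10 in F121-6, -2.19 in F121-9, -2.63 in F123 and -1.50 in Cas129 ESCs, and ran from -3.82 to -3.27 over the MEF embryos. The groups do not overlap, and their difference was -1.37 (exact permutation test, two-sided p = 0.0079, the smallest possible, adjusted 0.0317). Part of it comes from the flanks, whose means were higher in MEFs (2.97 and 2.56) than in ESCs (2.62 and 2.31). In NPCs the contrast was -3.29 and -4.13, lower than in every ESC line. With 5 lines against 2 the exact permutation test cannot give a p below 0.0476, and the adjusted value was 0.0762. As a rank in its own profile, the cluster's mean timing stood at the 57.1 to 67.9 percentile of autosomal windows in ESC lines, 39.1 and 47.1 in NPC lines and 39.3 to 44.1 in MEF embryos. From ESCs to MEFs it fell by 18.6 percentile points (exact permutation p = 0.0079, adjusted 0.0317). For both measures the adjusted exact permutation p was 0.0762 without embryos 1 and 3 or without any 1 of the 5 ESC lines. V6.5 stood at 53.3, below the 5 hybrid ESC lines, and XEN at 59.8.

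MEFs and NPCs differed at the cluster about as often as elsewhere. Of 16 windows, 4 were called earlier in MEFs, those in which Pcdha4 to Pcdha12, Pcdhac1 and Pcdhac2 start, and 0 later, where 33.3% of all windows were called, 25.7% earlier and 7.64% later. All 4 are Pcdha windows. The first 4 Pcdhb windows differed in the same direction by 0.68 to 0.92, below the size of 1, with adjusted p = 0.0654 to 0.0755 in limma. The calls thus do not set Pcdha apart from Pcdhb. The largest difference was at Pcdhac1, 1.20 ± 0.40 (SE, limma adjusted p = 0.0176), and the smallest at Pcdhga1 (-0.064 ± 0.24, adjusted p = 0.845 in limma). The count did not hold: it was 0 after median centring, after quantile normalization, without embryos 1 and 3 and without the Cas129 NPCs, 2 without embryo 1, 2 or 3 alone, and 10 without the F121-9 NPCs. All windows called split into 11285 earlier and 3358 later as deposited and 5832 and 9236 after centring.

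On feeders, ESCs of F121-6 and F121-9 replicated Pcdhac1, Pcdhac2 and their neighbours and the last Pcdhb genes earlier than in 2i. Over the Pcdha windows, F121-6 was at 0.77 and -0.02 on feeders and -0.70 and -0.05 in 2i, and F121-9 at 0.35 and 0.61 on feeders and -0.35 and -0.51 in 2i. All 4 feeder profiles lay above all 4 profiles in 2i there, by little in the closest pair. Over Pcdhg the values were 2.00 and 1.49 on feeders and 2.27 and 1.91 in 2i in F121-6, and 2.15 and 1.94 against 2.24 and 2.34 in F121-9, so that the media overlap in F121-6 and not in F121-9. The fit took these 8 profiles singly, with the line as a covariate. Its p-values thus measure the spread between profiles, whose repeats may be technical, and not between lines. In this fit 5 of 16 windows were called earlier on feeders (limma, a size of 0.5 or more at an adjusted p below 0.05), where 12.8% of all windows were called, 4.92% earlier and 7.86% later. They were 3 Pcdha windows, in which Pcdha10 to Pcdha12, Pcdhac1 and Pcdhac2 start, and 2 Pcdhb windows, with Pcdhb15 to Pcdhb22, and 0 were called later. The largest difference was at Pcdhac1, where timing was 0.583 and -0.044 on feeders and -0.973 and -0.801 in 2i in F121-6, and 0.043 and 0.228 against -0.671 and -0.857 in F121-9. All 4 feeder profiles lay above all 4 profiles in 2i, and the fitted difference was 1.03 ± 0.21 (SE, limma adjusted p = 0.0079). The Pcdhg windows differed by -0.47 to -0.11, and 0 of 4 were called. With F121-9 alone 10 windows were called and with F121-6 alone 0, and 3 were called without the first 2i profile of F121-6 or the second 2i profile of F121-9. All windows called split into 2163 earlier and 3455 later on feeders as deposited, and 3066 and 2740 after centring.

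The 2 alleles ran together along the locus. Pearson's r between the alleles across the 19 windows from the first to the last gene, which share a smooth profile and are given as a description, was 0.832 to 0.997 in ESCs. It was 0.968 to 0.986 among the NPC profiles, and MEF profiles had 0.969 to 0.992. The lowest value belonged to the second feeder profile of F121-6. The mean size of the allelic difference over the member windows was smaller than the autosomal mean in 22 of the 24 profiles of 129 and Cas hybrids, the exceptions being the second feeder profile of F121-6 and the first profile of embryo 1. Against the autosomal median, which large differences raise less, it was larger in 7 of 24: all 3 NPC profiles, both of embryo 1 and both of F121-6 on feeders. The highest values, 0.633 and 0.783, were those of F121-6 on feeders, whose repeat profiles also lay furthest apart (SD of the allelic difference between repeats 0.648, against 0.093 in F121-9 in 2i).

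None of the 16 member windows was called between the alleles in any cell type by limma, where 25.2% of all windows were called in ESCs, 4.71% in NPCs and 12.9% in MEFs. At an unadjusted p below 0.05 there was 1 member window in each, 6.25% of the 16, against 47.7% of all windows in ESCs, 19.5% in NPCs and 33.1% in MEFs. In ESCs it was that of Pcdhb20, Pcdhb21 and Pcdhb22, with 129 minus Cas at -0.142 in F121, -0.587 in F121-6, -0.207 in F121-9, -0.246 in F123 and -0.293 in Cas129. The Cas allele was the earlier one in 5 of 5 lines, as in 18.7% of all windows (129 was in 20.9%). The mean was -0.30 ± 0.12 (SE, limma adjusted p = 0.0559), below the size of 0.5 asked for. In MEFs the same window had the largest mean, -0.25 ± 0.13 (SE, limma adjusted p = 0.207), with -0.541, -0.174, -0.094 and -0.171 in embryos 1 to 4. The MEF window with an unadjusted p below 0.05 was that of Pcdhb1 and Pcdhb2, at -0.22 ± 0.10 (SE, limma adjusted p = 0.134). In NPCs it was that of Pcdhgc3, Pcdhgc4 and Pcdhgc5, at 0.50 ± 0.14 (SE, limma adjusted p = 0.0594), and it was called without the F121-6 ESCs, which enter the fit's estimate of spread. Over Pcdha and over Pcdhb the mean was negative in 4 of 4 embryos and 2 of 2 NPC lines. In ESCs it was negative in 4 of 5 lines over Pcdha and 3 of 5 over Pcdhb. By window, Cas was earlier in all 4 embryos in 25% of the 16 member windows (26.4% of all windows) and 129 in 6.25% (22.9%). In both NPC lines Cas was earlier in 56.25% (30.7% of all windows) and 129 in 18.75% (34.5%). By subcluster, 129 minus Cas in ESCs was -0.07 ± 0.08 over Pcdha, -0.08 ± 0.15 over Pcdhb and -0.07 ± 0.21 over Pcdhg, each mean within 1 SD between lines of 0.

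**Figure D4:**
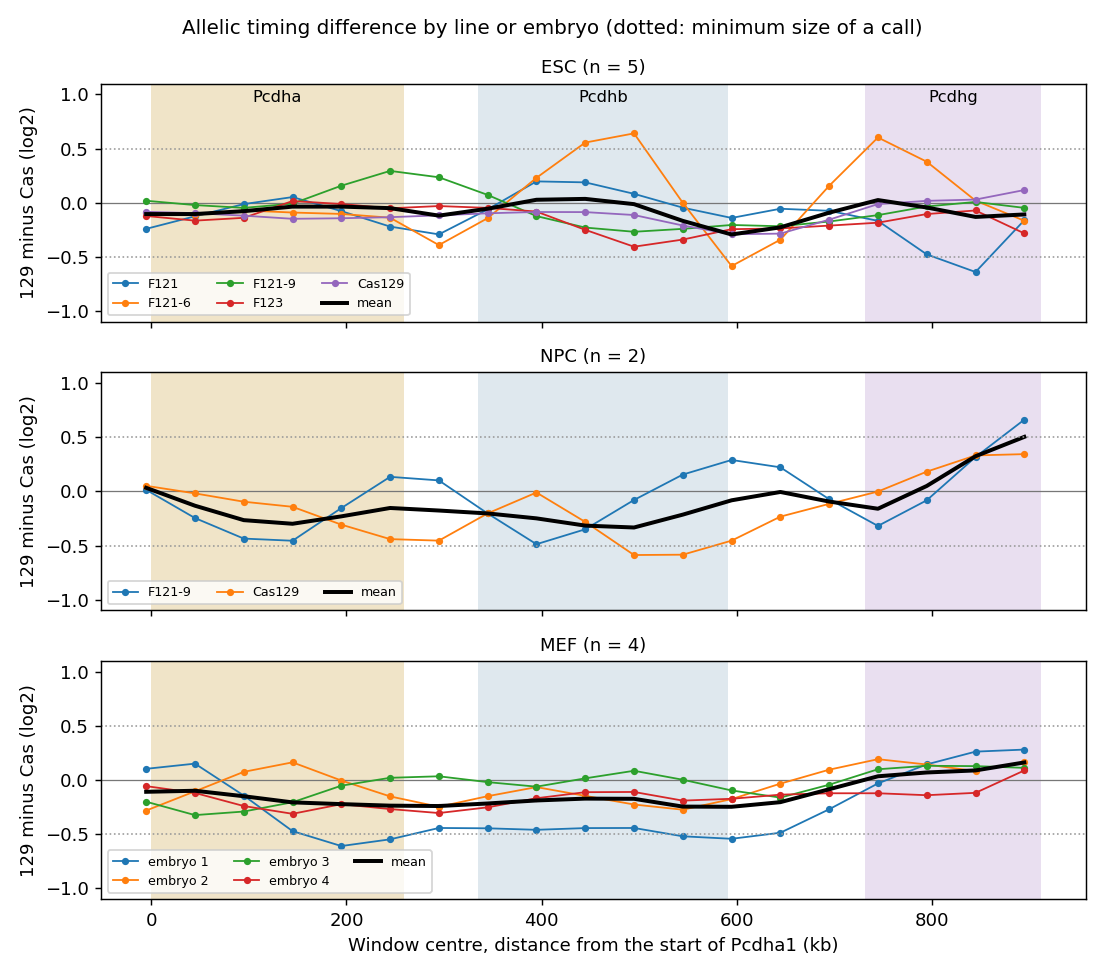
Allelic difference (129 minus Cas, log2) of each line or embryo along the locus against distance from the start of Pcdha1 in kb, with the cell type mean in black. Dotted lines mark the minimum size of a call. ESC lines scatter on both sides of 0, MEF and NPC means lie below 0 over Pcdha and Pcdhb (apart from the first NPC window, at 0.033) but within the minimum size of a call, embryo 1 lies lowest of the embryos over Pcdhb, and both NPC lines rise above 0 at the last Pcdhg window.

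In MEFs the difference was -0.17 ± 0.09 over Pcdha, -0.21 ± 0.19 over Pcdhb and 0.09 ± 0.11 over Pcdhg (SD, n = 4). Embryo 1 was lowest over Pcdhb at -0.474, followed by embryos 2 at -0.171, 4 at -0.166 and 3 at -0.010. Without embryo 1 the Pcdhb mean was -0.12 ± 0.09, and without embryos 1 and 3 it was -0.17. The MEF minus ESC test of the allelic difference called 0 of 16 windows, where 27.4% of all windows were called. At an unadjusted p below 0.05 there were 0 member windows, against 40.8% of all windows. With the profiles of a line or embryo averaged first, the mean size of the allelic difference over the cluster was 0.164 ± 0.05 in ESCs. It was 0.195 ± 0.11 in MEFs (exact permutation p = 0.635 against ESCs) and 0.264 ± 0.02 in NPCs (exact permutation p = 0.0952, adjusted 0.127). Lines had 1 to 4 profiles, so the averaging was uneven. With the size taken in single profiles, the means were 0.245 ± 0.16 in ESCs, 0.234 ± 0.09 in MEFs and 0.294 ± 0.03 in NPCs, which was not tested.

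In NPCs, 129 minus Cas was negative over Pcdha (-0.190 in F121-9 and -0.159 in Cas129) and over Pcdhb (-0.112 and -0.354) and positive over Pcdhg (0.145 and 0.215). The NPC minus ESC test called 1 of 16 windows, where 16.1% of all windows were called. It is the window of Pcdhgc3, Pcdhgc4 and Pcdhgc5, with 0.664 in the profile of F121-9 NPCs, 0.633 and 0.057 in those of Cas129 NPCs, and -0.163 in F121, -0.168 in F121-6, -0.049 in F121-9, -0.285 in F123 and 0.116 in Cas129 ESCs. The groups of lines do not overlap, although 1 NPC profile falls within the ESC range, and the difference was 0.61 ± 0.17 (SE, limma adjusted p = 0.0237). It was 0.46 without the F121-9 NPCs (adjusted p = 0.242 in limma), 0.47 with the lines paired (adjusted p = 0.301 in limma) and 0.61 with an adjusted p of 0.0562 in limma without embryos 1 and 3, which changes only the estimate of spread. In MEFs this window stood at 0.284, 0.170, 0.115 and 0.091 in embryos 1 to 4, and the MEF minus ESC difference was 0.28 ± 0.13 (SE, limma adjusted p = 0.14).

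Neither the medium nor the direction of the cross gave a called allelic difference. For feeders against 2i 0% of all windows were called, with 5104 at an unadjusted p below 0.05, of which 0 were member windows. For Cas129 against the 4 ESC lines of the opposite cross label 0% were called too, with 1358 at an unadjusted p below 0.05 and 0 member windows. A single line carries the reversed cross, so line and cross cannot be told apart. The widest member value of the cross contrast was 0.37 ± 0.34 at Pcdhgc3, Pcdhgc4 and Pcdhgc5 (SE, limma adjusted p = 1). In XEN cells, C57B6 minus Cas was -0.17 over Pcdha, -0.23 over Pcdhb and -0.24 over Pcdhg. The 2 XEN profiles had -0.618 and 0.141 over Pcdhg, and so differed in sign. In V6.5, 129 minus C57B6 stayed within 0.087 of 0 in every window of the locus.

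The non-clustered protocadherins, single genes of the same family on several chromosomes, were called about as often as windows at large. Of 10 measured, 1 was called later in NPCs than in ESCs (Pcdh10, -1.24) and 1 earlier (Pcdh18, 2.30), with a median of 0.238 over the genes, where 16.1% of all windows were later and 16.4% earlier. In MEFs 4 were called earlier than in ESCs (Pcdh7 at 1.61, Pcdh9 at 1.80, Pcdh18 at 3.77 and Pcdh20 at 2.43) and 0 later, where 30.3% of all windows were earlier and 13.7% later. Their difference from the cluster was not tested. Pcdh1 and Pcdh12 lie within 500 kb of the Pcdhg subcluster and differed by 0.565 and 0.689 in MEFs, with neither called. Of 11 genes known to act on the clusters (CTCF, subunits, loader and release factor of cohesin, DNA methyltransferases, Setdb1 and Smchd1), 10 were measured, and Wapl overlapped no window of the table. In NPCs 1 was called later, the cohesin subunit Rad21 (-2.85), and in MEFs 3, Rad21 (-1.80), the cohesin subunit Stag1 (-0.96 over its windows) and the cohesin loader Nipbl (-1.14), with 0 earlier in either. A gene over several windows counted as called where most of them were called in the same direction. Between the alleles, 0 of the 10 regulators were called in ESCs, NPCs or MEFs by limma, and of the non-clustered protocadherins only Pcdh20 in MEFs (-1.08). Of all windows, 25.2% were called between the alleles in ESCs, 4.71% in NPCs and 12.9% in MEFs.

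Between Pcdhb and Pcdhg, the windows without a member hold Slc25a2, a mitochondrial carrier, and Taf7, a TFIID subunit. The window with both (37600001 to 37650000) was at 1.93 in F121, 2.18 in F121-6, 1.69 in F121-9, 1.73 in F123 and 1.66 in Cas129 ESCs, at -0.433 and -1.31 in F121-9 and Cas129 NPCs, and at -0.837, -0.630, -0.688 and -1.17 in MEF embryos 1 to 4. It moved with its neighbours, by -2.71 ± 0.25 in NPCs and -2.67 ± 0.20 in MEFs (SE, limma adjusted p = 2.28e-07 and 4.48e-09). In the flanks 0 of 20 windows were called between NPCs and ESCs or between MEFs and ESCs, where 32.5% and 44% of all windows were called. All of them fell short of the size of 1, which does not make them unchanged. The median MEF minus ESC difference was 0.48 in the proximal and 0.51 in the distal flank, against 0.38 over all windows. There 5 of 10 proximal and 8 of 10 distal windows had an unadjusted p below 0.05 in limma. The flank window nearest to the cluster on the Pcdhg side, inside Diaph1, differed from ESCs by -0.59 in NPCs and -0.85 in MEFs, and the nearest on the Pcdha side by -0.87 and -0.34.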

How the data were processed

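Allele-resolved Repli-Seq was measured in 54 libraries that form 27 profiles of 2 alleles each. Per the file headers, the authors made the deposited values as log ratios of early over late signal per allele and 50 kb window, whose base is not stated and was read as log2. Bowtie2, SAMtools and bedtools are listed in the submitters' processing notes without versions; allele assignment, scaling and smoothing are not given in the sources used here. The values carry no read counts, so the depth is unknown and no counting interval can be given.

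Gene positions came from RefSeq's GRCm38.p6 annotation. Profiles were averaged per line or embryo (5 ESC lines, 2 NPC lines and 4 MEF embryos), and limma 3.58.1 in R 4.3.3 was fitted over 43941 autosomal windows with Benjamini-Hochberg adjustment. Where the labels do not say that repeat profiles came from separate cultures, they may be technical. Calls needed a size of at least 0.5 (alleles, medium, cross) or 1 (timing between cell types) at an adjusted p below 0.05. Cluster summaries were compared by exact two-sided permutation tests. Tables and figures were made with Python 3.11.15, pandas 2.3.3, numpy 2.4.6 and matplotlib 3.10.9, and the fits were tested on simulated data.

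Named were the first and last gene of each subcluster, the C-type genes, the genes at the largest and smallest difference of each comparison, and neighbours within 500 kb; other named genes are from lists of non-clustered protocadherins, regulators and ESC, fibroblast and extraembryonic endoderm markers; a further marker list is not reported here. Members and lists were chosen with earlier results of these data known. Alternatives covered scaling, minimum size, left-out lines, embryos and profiles, medium, labelled sex, blocks, windows of gene starts and the summaries' measure and flanks. Sequences were not used here.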

Additional observations from a re-analysis of the deposited data

Results flagged for a closer look

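In F121-9 ESCs the mean allelic difference over the Pcdha windows, 129 minus Cas, was 0.064, far from the other 4 lines at -0.122 to -0.081. Each of 32 groups was held to Dixon's 95% critical value, which by its construction about 1 in 20 groups of normal values exceed by chance. The allelic difference of the window of Pcdhgc3, Pcdhgc4 and Pcdhgc5 differed between NPCs and ESCs by 0.614 in limma's test of the difference itself (adjusted p = 0.0237), and repeat profiles of Cas129 NPCs stood at 0.633 and 0.057 there.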

How the results depend on the processing

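Of the results that answer a comparison, 288 values under an alternative were labelled the same. For the tested summaries this means the same direction and side of the threshold. For counts of windows it means only a count within 1.5 times, 0 against 0 included. A further 26 counts moved by over 1.5 times or to or from 0, 18 values lost their call and 2 changed sign. Without embryos 1 and 3, MEFs minus ESCs was -1.87 for Pcdhg minus Pcdha, -1.45 for the cluster minus its flanks and -19.7 percentile points, and all 3 lost their call at this number of samples. With 1 line or embryo left out these ran from -2.14 to -1.67, from -1.50 to -1.21 and from -19.6 to -16.9. The mean size of the allelic difference on averaged profiles, MEFs minus ESCs, turned to -0.006 without embryos 1 and 3. It ran from -0.02 to 0.058 with 1 left out, the sign turning without embryo 1.

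With 2 times the minimum size, 5 windows were called for NPCs against ESCs, 3 for MEFs against ESCs, 0 for MEFs against NPCs, 2 for feeders against 2i and 0 for the NPC minus ESC allelic difference. The last count was also 0 without embryos 1 and 3, with lines and embryos labelled female only, with the line as a random block and with F121-9 and Cas129 paired. For MEFs against NPCs it was 0 after centring, after quantile normalization and without embryos 1 and 3. Feeders against 2i gave 0 in F121-6 alone and 10 in F121-9 alone. Leaving out 1 line, embryo or profile gave 9 to 16 for NPCs against ESCs, 7 to 8 for MEFs against ESCs, 0 to 10 for MEFs against NPCs, 3 to 7 for feeders against 2i, and 0 to 1 for the NPC allelic and the NPC minus ESC allelic difference.

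The same replicate numbers did not pair profiles (correlation of their deviations from group means -0.071 to 0.039 for alleles and -0.397 to 0.304 for timing, over 55 pairs). With the number as a replicate block, 14 windows were called for NPCs against ESCs, 7 for MEFs against ESCs, 7 for MEFs against NPCs, 5 for feeders against 2i and 0 for the NPC minus ESC allelic difference. The NPC comparisons rest on 2 lines and 3 profiles, neighbouring windows are not independent, and without read counts the depth behind a window cannot be weighed.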
